A study of Mus musculus with 622 samples.

Results

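The genes described here are 8 amino acid transporter genes and the arginase gene Arg1, 9 of the 44448 genes in a table of single-cell RNA from mouse pancreatic islets. They are Slc38a1, Slc38a2, Slc38a4, Slc38a5, Slc7a2, Slc7a5, Slc7a8, Slc3a2 and Arg1, found in the table by their Entrez gene IDs. RNA of 622 single cells, all from wild-type C57BL/6 mice and from pancreatic islets, was measured with 1 library per cell after capture on a Fluidigm C1 chip, in which every cell is lysed and its cDNA amplified in a chamber of its own. The labels give no treatment, age, animal or chip and put every cell in 1 group. Levels are in RPKM, read numbers divided by gene length and by each cell's mapped total, so levels of different genes can be set side by side. A cell was kept when at least 1000 genes reached 1 RPKM, which held for 593 cells, and a gene counts as detected in a cell at 1 RPKM or more. A kept cell was assigned to a hormone when glucagon (Gcg), somatostatin (Sst), pancreatic polypeptide (Ppy, PP) or insulin (Ins1 plus Ins2) held at least 90% of the summed RPKM of these 5 genes. This gave 33 glucagon cells, 13 somatostatin cells, 11 PP cells and 395 insulin cells, 452 in all, and left 141 cells with mixed hormone RNA.

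Because no animal is named, each hormone group is 1 sample, its cells are not replicates, and no difference below has a test or a replicate error. Shares of cells carry exact Clopper-Pearson 95% intervals, which cover the counting of cells only. Just inside the 90% rule, the lowest hormone shares were 92.4% in the glucagon cells, 91.2% in the somatostatin cells, 94.3% in the PP cells and 90.0% in the insulin cells. Just outside it, the highest shares were 86.8% among mixed cells led by glucagon, 85.1% among those led by somatostatin, 79.9% among those led by PP and 89.7% among those led by insulin. Median depth was 1142615 reads in glucagon cells, 994727 in somatostatin cells, 1139931 in PP cells and 1130401 in insulin cells, as recovered from the RPKM steps. The median number of genes at 1 RPKM or more was 4576 in glucagon cells, 4371 in somatostatin cells, 3798 in PP cells and 5259 in insulin cells. Hormone genes held a median of 17.1% of the RPKM in somatostatin cells, against 43.3% in glucagon, 46.7% in PP and 45.1% in insulin cells. The columns of the table fell into 255 cells at full precision and 197 cells rounded to 4 decimals among the 452. The labels do not mention these column sets, so values within each set are given beside the main ratios past 4-fold that lose the call in 1 set and beside those of Slc38a2.

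Markers that the hormone rule did not use matched the hormone names in part. In glucagon cells, the alpha-cell genes Ttr and Irx2 were detected in 33 and 19 of 33 cells. Ttr was also detected in 13 of 13 somatostatin, 9 of 11 PP and 387 of 395 insulin cells. Its means there were 168.3, 1272 and 585.3 RPKM, against 15080 in glucagon cells. Irx2 was detected in 0 somatostatin, 0 PP and 10 insulin cells. In somatostatin cells, the delta-cell genes Rbp4, Hhex and Ghsr were detected in 13, 11 and 6 of 13 cells. Ly6h was detected in only 4, and Lepr and Gabrg1 in 0. Rbp4 was also detected in 31 of 33 glucagon, 8 of 11 PP and 124 of 395 insulin cells. Its means there were 226.1, 73.5 and 14.5 RPKM, against 2875 in somatostatin cells. Counting the hormone itself, 6 of 8 alpha markers were detected in at least 50% of the glucagon cells, 3 of 7 delta markers in as many of the somatostatin cells and 8 of 9 beta markers in as many of the insulin cells. In insulin cells, the glucose transporter gene Slc2a2 was detected in 350 of 395 cells and the beta-cell factor gene Nkx6-1 in 272, whereas Mafa reached 1 RPKM in only 7. The PP list set the PP cells apart least: Pyy was detected in 11 of 11 PP cells, but also in 33 of 33 glucagon and 13 of 13 somatostatin cells, Sertm1 in 1 PP cell and Fmo1 in 0. At least 3 markers of a class outside the endocrine cells reached 10 RPKM in 2 glucagon, 2 somatostatin, 2 PP and 18 insulin cells. Macrophage markers were those of 1 glucagon, 1 somatostatin, 1 PP and 12 insulin cells, and 1 somatostatin cell and 1 insulin cell carried acinar markers. Summed macrophage marker RPKM ranged from 0 to 9820 in glucagon cells, 0 to 13270 in somatostatin cells, 0 to 395.8 in PP cells and 0 to 20370 in insulin cells, and its medians were 0 in glucagon and PP cells, 1.05 in somatostatin cells and 0.742 in insulin cells.

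Amino acids enter cells through carriers with overlapping substrates. The Slc38 genes encode sodium-coupled neutral amino acid transporters, which favour glutamine, alanine and other small neutral amino acids, and Slc7a2 encodes a carrier of arginine, lysine and ornithine. Slc7a5 and Slc7a8 encode light chains that exchange large neutral amino acids such as leucine, and both need the heavy chain encoded by Slc3a2 to reach the plasma membrane. Arg1 encodes the cytosolic arginase that splits arginine into ornithine and urea and is best known from the urea cycle of the liver. In islets, arginine and other amino acids are known secretagogues of insulin and glucagon, and in mice Slc38a5 is known from alpha cells when glucagon signalling is interrupted.

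For 3 Slc38 genes of different pattern the 250 bases upstream of the annotated start are shown, since Slc38a2 and Slc38a4 are neighbours on chromosome 15 and Slc38a5 was detected in some glucagon cells and at 0 in others. The sequences are RefSeq promoters on GRCm38.p6, read 5′ to 3′ on the gene's strand, with searched motifs in capitals. They lie at chrX:8271131-8271380 on the plus strand, at chr15:97055957-97056206 on the minus strand and at chr15:96699729-96699978 on the minus strand, in the order printed.
Slc38a5: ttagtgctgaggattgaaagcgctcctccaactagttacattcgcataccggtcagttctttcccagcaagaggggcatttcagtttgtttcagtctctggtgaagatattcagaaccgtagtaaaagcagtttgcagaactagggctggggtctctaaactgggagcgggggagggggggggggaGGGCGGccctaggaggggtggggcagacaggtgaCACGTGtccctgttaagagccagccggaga
Slc38a4: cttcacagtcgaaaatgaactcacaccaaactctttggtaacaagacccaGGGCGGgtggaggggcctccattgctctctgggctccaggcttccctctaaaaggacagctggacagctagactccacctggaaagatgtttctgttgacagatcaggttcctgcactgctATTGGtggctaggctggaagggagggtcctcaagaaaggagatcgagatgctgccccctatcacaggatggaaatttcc
Slc38a2: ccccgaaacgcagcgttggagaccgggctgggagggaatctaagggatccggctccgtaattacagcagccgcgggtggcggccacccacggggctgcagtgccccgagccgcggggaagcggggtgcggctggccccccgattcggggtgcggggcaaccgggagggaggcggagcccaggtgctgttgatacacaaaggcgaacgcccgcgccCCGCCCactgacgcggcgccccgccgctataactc
Motifs were searched on both strands, and no matches overlapped each other. The E-box was searched as CACGTG, which is its own reverse complement. The GC box, a site of Sp1-like factors, was searched as GGGCGG. The motif of the factor NF-Y was searched as CCAAT and the TATA box, read by the general transcription machinery, as TATAAA. The core bound by C/EBP and ATF factors was searched as TGATGNAA and the cAMP response element, bound by CREB, as TGACGTCA. Slc38a5 held CACGTG 30 to 25 bases upstream of the start and GGGCGG 64 to 59 bases upstream. CACGTG was present in 6.02% and GGGCGG in 32.7% of 32851 RefSeq promoters of the same length. Slc38a4 held GGGCGG 200 to 195 bases upstream and CCAAT on the opposite strand 79 to 75 bases upstream, a motif found in 33.9% of promoters. Slc38a2 held GGGCGG on the opposite strand 35 to 30 bases upstream and was the richest of the 3 in G and C, at 72.0%, against 55.2% for Slc38a5 and 52.8% for Slc38a4. The TATA box, the C/EBP and ATF core and the cAMP response element, present in 12.4%, 3.45% and 1.55% of promoters, had no match in these 3 windows. A match is a string of letters, not a bound site.

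**Figure D1:**
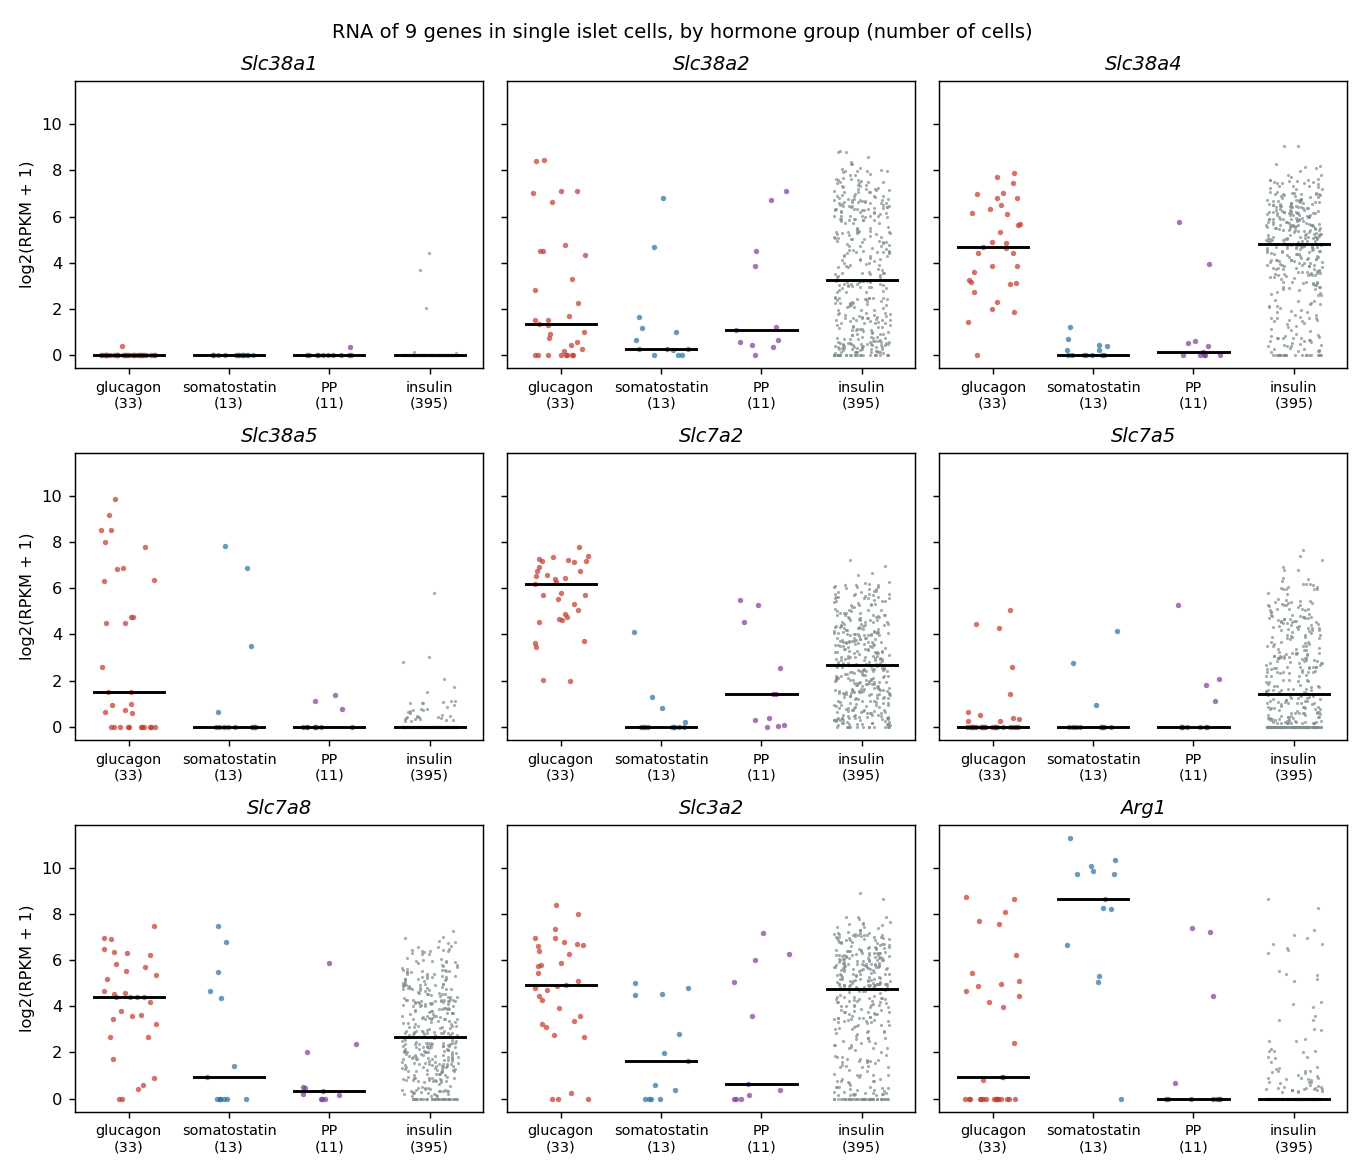
RNA level of each gene in single cells, as log2(RPKM + 1), by hormone group (points, cells; black lines, group medians; number of cells in parentheses). Arg1 was high in 12 of 13 somatostatin cells, Slc7a2 was above 3 RPKM in all 33 glucagon cells, and Slc38a5 was spread from 0 to 919.5 RPKM within the glucagon cells.

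Among the sodium-coupled transporters, Slc38a5 RNA marked a subset of glucagon cells. Slc38a5 (chromosome X, 8271381 to 8280179) ranged from 0 to 919.5 RPKM in glucagon cells with a median of 1.82, from 0 to 225.7 in somatostatin cells with a median of 0, from 0 to 1.59 in PP cells with a median of 0, and from 0 to 53.8 in insulin cells with a median of 0. The groups overlapped: 11 glucagon cells were at 0, while 10 glucagon cells lay above the highest insulin cell. It was detected in 17 of 33 glucagon cells (51.5%, 33.5 to 69.2), 3 of 13 somatostatin cells (23.1%, 5.04 to 53.8), 2 of 11 PP cells (18.2%, 2.28 to 51.8) and 12 of 395 insulin cells (3.04%, 1.58 to 5.25). Of the 17 glucagon cells, 14 were at 10 RPKM or more and 8 at 100 or more, so detection in this group was mostly far above the threshold. The 1 glucagon cell with macrophage markers held 572.3 RPKM. Without cells of non-endocrine markers, Slc38a5 was detected in 16 of 31 glucagon cells, at a group mean of 84.55 RPKM. In insulin cells only 1 cell reached 10 RPKM. The 3 somatostatin cells held 10.3, 115.6 and 225.7 RPKM, whereas the 2 PP cells held 1.20 and 1.59.

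The mean of Slc38a5 was 96.8 RPKM in glucagon cells, 27.1 in somatostatin cells, 0.316 in PP cells and 0.233 in insulin cells. The log2 ratio of means, with 1 RPKM added to each, was 6.31 for glucagon over insulin cells and 4.51 for somatostatin over insulin cells. The single highest cell held 28.8% of the summed Slc38a5 RPKM of the glucagon group and 64.1% of that of the somatostatin group. Within the column sets, Slc38a5 was detected in 7 of 17 glucagon cells at full precision, with a mean of 28.2 RPKM, and in 10 of 16 rounded glucagon cells, with a mean of 169.6 RPKM. The glucagon over insulin log2 ratio was 4.67 at full precision and 6.99 in the rounded set. The 17 glucagon cells with Slc38a5 had a median of 1506214 reads and 4699 genes, against 927203 reads and 4376 genes in the 16 without it. Of these, 7 of the 17 and 10 of the 16 were full-precision columns. The part of depth and column set in the result was not tested. After each cell was thinned to 250000 reads, at least 1 Slc38a5 read was found in 16 of 32 glucagon, 3 of 13 somatostatin, 2 of 11 PP and 14 of 391 insulin cells. The 12 insulin cells with Slc38a5 had a median Gcg of 119.4 RPKM, against 45.6 in the other 383. The highest Gcg went the other way, at 8456 RPKM in the 12 and 52580 in the others. The part of Gcg in the result was not tested.

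Slc38a2, which encodes a widely expressed transporter of small neutral amino acids, was also present in some glucagon cells and at or near 0 in others. Its levels ran from 0 to 347.4 RPKM in glucagon cells (median 1.52), from 0 to 110.3 in somatostatin cells (median 0.216), from 0 to 138.3 in PP cells (median 1.13) and from 0 to 453.1 in insulin cells (median 8.42). All 4 groups overlapped, each with cells at 0 and cells above 100 RPKM. Slc38a2 was detected in 18 of 33 glucagon cells (54.5%, 36.4 to 71.9), 5 of 13 somatostatin cells (38.5%, 13.9 to 68.4), 6 of 11 PP cells (54.5%, 23.4 to 83.2) and 300 of 395 insulin cells (75.9%, 71.4 to 80.1). The detected share was lower in these glucagon cells than in the insulin cells, although the group means, 39.5 and 45.8 RPKM, were close. At full precision Slc38a2 was detected in 8 of 17 glucagon and 183 of 226 insulin cells. In rounded columns the counts were nearer, with 10 of 16 glucagon and 117 of 169 insulin cells. The log2 ratio of glucagon over insulin cells was -0.21, with -1.19 at full precision and 0.51 in rounded columns, so its direction differed between column sets. In somatostatin cells the mean was 10.8 RPKM and 78.5% of the group's sum came from 1 cell.

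Slc38a4, a sodium-coupled transporter gene best known from liver and placenta, was present in nearly all glucagon and insulin cells and almost missing from somatostatin cells. It ranged from 0 to 237.1 RPKM in glucagon cells (median 24.7), from 0 to 1.34 in somatostatin cells (median 0), from 0 to 53.0 in PP cells (median 0.0989) and from 0 to 531.1 in insulin cells (median 26.9). Of the glucagon cells, 32 of 33 lay above the highest somatostatin cell, as did 339 of 395 insulin cells and 2 of 11 PP cells. Detection was 32 of 33 glucagon cells (97.0%, 84.2 to 99.9), 1 of 13 somatostatin cells (7.69%, 0.195 to 36.0), 2 of 11 PP cells (18.2%, 2.28 to 51.8) and 343 of 395 insulin cells (86.8%, 83.1 to 90.0). With 250000 reads per cell the counts were 31 of 32 glucagon, 2 of 13 somatostatin, 4 of 11 PP and 351 of 391 insulin cells. The log2 ratio was -5.33 for somatostatin over insulin cells, the same to 2 decimals in the full-precision set and -5.28 in the rounded set. Its neighbour Slc38a2 (96687392 to 96699728 on chromosome 15) lies 295087 bases from Slc38a4 (96994816 to 97055956). Slc38a4 overlaps the RefSeq gene Gm32840, and since strand-specific counting is not stated, reads of the pair cannot be told apart.

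The third gene of that chromosome 15 cluster, Slc38a1 (96571418 to 96643438), whose product carries glutamine and other neutral amino acids in neurons, was close to absent. It was detected in 0 of 33 glucagon cells (a count of 0 allows up to 9.09%), in 0 of 13 somatostatin cells (up to 23.1%), in 0 of 11 PP cells (up to 27.3%) and in 3 of 395 insulin cells (0.759%, 0.157 to 2.20). All 3 of these insulin cells were among the 12 that carried macrophage markers, and without cells of non-endocrine markers the highest insulin cell was at 0.104 RPKM. Slc38a1 overlaps the RefSeq gene Gm32457.

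Slc7a2, the cationic amino acid transporter gene, was the only gene of the 9 detected in every glucagon cell. Slc7a2 (chromosome 8, 40862341 to 40922070) ranged from 3.02 to 217.7 RPKM in glucagon cells (median 71.9), from 0 to 16.4 in somatostatin cells (median 0), from 0 to 43.5 in PP cells (median 1.67) and from 0 to 150.2 in insulin cells (median 5.32). Of the glucagon cells, 28 of 33 exceeded the highest somatostatin cell and 21 exceeded the highest PP cell, while 7 of 395 insulin cells reached the glucagon median. It was detected in 33 of 33 glucagon cells (100%, 89.4 to 100), 2 of 13 somatostatin cells (15.4%, 1.92 to 45.5), 6 of 11 PP cells (54.5%, 23.4 to 83.2) and 313 of 395 insulin cells (79.2%, 74.9 to 83.1). Means were 77.5 RPKM in glucagon cells, 1.45 in somatostatin cells, 10.1 in PP cells and 13.6 in insulin cells. The log2 ratios were 2.43 for glucagon over insulin cells (2.05 at full precision, 2.80 rounded) and 5.00 for glucagon over somatostatin cells. With a pseudocount of 10 RPKM the first of these was 1.89, below 4-fold. Of the 8 other members, the cell-to-cell spread was larger in each one detected in glucagon cells: the coefficient of variation over the 33 cells was 0.746 for Slc7a2, against 1.16 for Slc7a8, 1.17 for Slc38a4, 1.23 for Slc3a2, 2.07 for Slc38a5, 2.09 for Arg1, 2.22 for Slc38a2 and 2.95 for Slc7a5.

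Arg1 was the most abundant of these RNAs in somatostatin cells. Arg1 (chromosome 10, 24915207 to 24927470) ranged from 0 to 427.7 RPKM in glucagon cells (median 0.896), from 0 to 2521 in somatostatin cells (median 403.4), from 0 to 167.3 in PP cells (median 0) and from 0 to 394.5 in insulin cells (median 0). Of the somatostatin cells, 7 of 13 lay above the highest insulin cell, 6 above the highest glucagon cell and 9 above the highest PP cell. In the 13 somatostatin cells the values were 0, 31.7, 39.3, 99.5, 292.4, 301.6, 403.4, 847.7, 856.6, 932.5, 1068, 1295 and 2521 RPKM. The cell at 0 was the 1 cell with acinar markers. It had 1804782 reads and 2474 genes, against medians of 988072 reads and 4555 genes in the other 12. Without it, the mean of somatostatin cells was 724.0 RPKM, against 668.3 with it. Arg1 overlaps the RefSeq gene Gm40616, with the same limit on strand.

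Detection of Arg1 was uneven in glucagon cells, with 15 of 33 (45.5%, 28.1 to 63.7), and near-complete in somatostatin cells, with 12 of 13 (92.3%, 64.0 to 99.8). It was found in 3 of 11 PP cells (27.3%, 6.02 to 61.0) and 44 of 395 insulin cells (11.1%, 8.21 to 14.7). With 250000 reads per cell the counts were 14 of 32 glucagon, 12 of 13 somatostatin, 3 of 11 PP and 43 of 391 insulin cells. Glucagon cells with Arg1 had a median of 1197163 reads and 4948 genes, against 1098626 reads and 4424 genes in those without. By column set, Arg1 was detected in 9 of 17 full-precision and 6 of 16 rounded glucagon cells. Somatostatin RNA was not higher in the glucagon cells that had Arg1, with a median Sst of 38.2 RPKM against 59.4 in those without. In insulin cells it was, with a median Sst of 83.7 RPKM in the 44 cells with Arg1, against 51.3 in the other 351. The highest Sst was 40370 RPKM in the insulin cells with Arg1 and 2750 in those without. Medians of the other hormones were higher in these 44 cells too. Gcg was at 72.2 against 43.6 RPKM and Ppy at 16.4 against 12.4 RPKM. The part of these hormone traces in the result was not tested. Arg1 is also a known macrophage gene. Among cells with macrophage markers, Arg1 was at 0 in the 1 glucagon cell, 99.5 RPKM in the 1 somatostatin cell, 145.7 in the 1 PP cell and at most 0.672 in the 12 insulin cells. Without cells of non-endocrine markers, Arg1 was detected in 14 of 31 glucagon, 11 of 11 somatostatin, 2 of 9 PP and 44 of 377 insulin cells.

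Means of Arg1 were 53.9 RPKM in glucagon cells, 668.3 in somatostatin cells, 30.4 in PP cells and 4.89 in insulin cells. The log2 ratios were 3.22 for glucagon over insulin cells, 6.83 for somatostatin over insulin cells, 2.41 for PP over insulin cells and -3.61 for glucagon over somatostatin cells. With the hormone rule at 75% instead of 90%, the glucagon over insulin ratio of Arg1 was 1.38 and the PP over insulin ratio 0.16. The PP ratio rests on 3 cells, at 20.6, 145.7 and 167.3 RPKM, of which the one at 145.7 carried macrophage markers. It was 1.85 without the highest cell of each group and 1.84 without cells of non-endocrine markers, below 4-fold in both. Median Sst was 229.8 RPKM in the 3 PP cells with Arg1 (highest 13280), against 80.2 in the other 8 (highest 648.5). The part of this in the result was not tested.

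**Figure D2:**
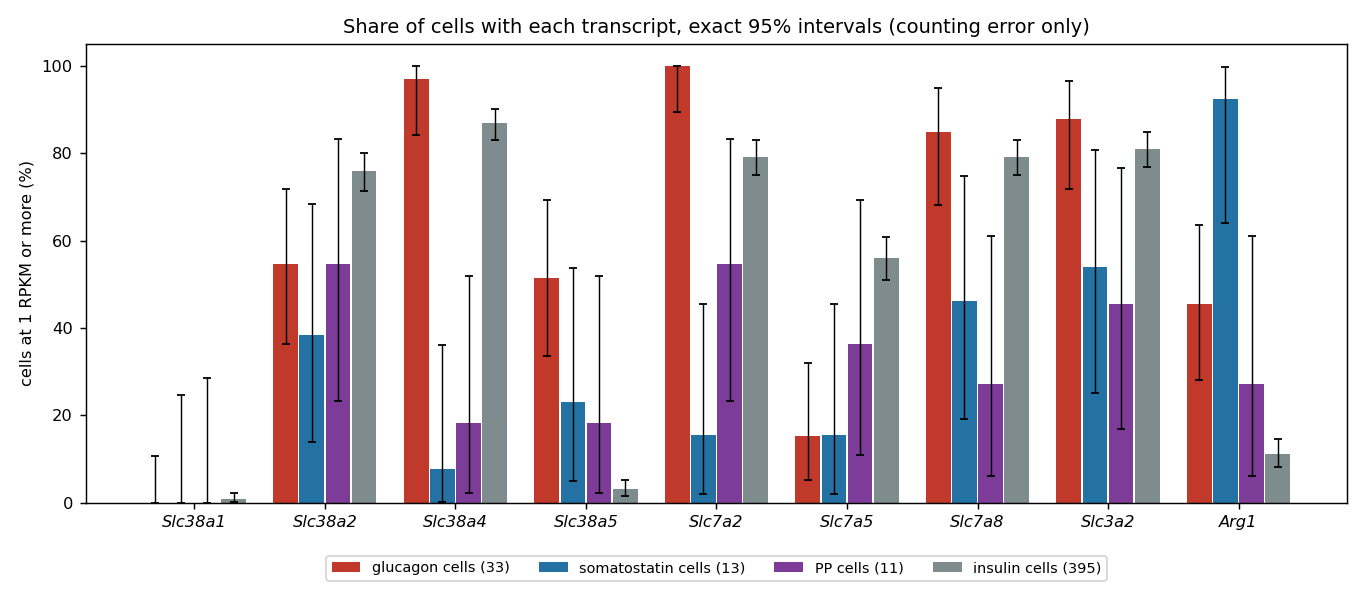
Share of cells of each hormone group with each RNA at 1 RPKM or more, with exact 95% intervals for the counting of cells. Arg1 was found in 92.3% of somatostatin cells and 11.1% of insulin cells, and Slc38a4 in 7.69% of somatostatin cells and 86.8% of insulin cells.

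Joint detection of the arginine carrier and the arginine-splitting enzyme was counted next. Slc7a2 and Arg1 were both detected in 15 of 33 glucagon cells, 2 of 13 somatostatin cells, 2 of 11 PP cells and 36 of 395 insulin cells. Since every glucagon cell had Slc7a2, the glucagon count is that of Arg1. Arg1 without Slc7a2 was seen in 0 glucagon, 10 somatostatin, 1 PP and 8 insulin cells. Slc7a2 without Arg1 was seen in 18 glucagon, 0 somatostatin, 4 PP and 277 insulin cells. Most somatostatin cells held Arg1 RNA with no detected Slc7a2 RNA, and most insulin cells the reverse. Other Slc7 genes of the cationic subfamily differed among themselves. Slc7a1 averaged 1.91 RPKM in glucagon cells, 14.5 in somatostatin cells, 1.52 in PP cells and 3.43 in insulin cells, and its somatostatin mean came from 3 of 13 cells. Slc7a14 averaged 10.6 RPKM in glucagon cells, 46.8 in somatostatin cells, 6.25 in PP cells and 27.1 in insulin cells, and was detected in 22 of 33 glucagon, 11 of 13 somatostatin, 4 of 11 PP and 331 of 395 insulin cells. Slc7a4 averaged 1.08 RPKM in glucagon cells, 1.99 in somatostatin cells, 0.512 in PP cells and 7.99 in insulin cells, and Slc7a3 averaged below 0.5 RPKM in each group.

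The heavy chain gene Slc3a2 and its light chain partners were found together in most glucagon and insulin cells and in few somatostatin and PP cells. Slc3a2 averaged 60.9 RPKM in glucagon cells, 8.78 in somatostatin cells, 29.7 in PP cells and 42.8 in insulin cells. It was detected in 29 of 33 glucagon, 7 of 13 somatostatin, 5 of 11 PP and 320 of 395 insulin cells. Slc7a8, the light chain gene also called LAT2, averaged 36.4 RPKM in glucagon cells, 28.9 in somatostatin cells, 6.04 in PP cells and 15.7 in insulin cells, and was detected in 28 glucagon, 6 somatostatin, 3 PP and 313 insulin cells. The somatostatin mean was carried by few cells, with 177.1 RPKM in the highest and a median of 0.907. Slc7a5, the light chain gene also called LAT1, was the weaker of the pair in glucagon cells, with a mean of 2.42 RPKM, against 1.81 in somatostatin, 4.07 in PP and 11.3 in insulin cells. It was detected in 5 of 33 glucagon cells (15.2%, 5.11 to 31.9), 2 of 13 somatostatin cells (15.4%, 1.92 to 45.5), 4 of 11 PP cells (36.4%, 10.9 to 69.2) and 221 of 395 insulin cells (55.9%, 50.9 to 60.9).

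Slc3a2 with at least 1 light chain was present in 25 of 33 glucagon cells (75.8%, 57.7 to 88.9), 3 of 13 somatostatin cells (23.1%, 5.04 to 53.8), 3 of 11 PP cells (27.3%, 6.02 to 61.0) and 291 of 395 insulin cells (73.7%, 69.0 to 77.9). The light chain that accompanied it differed between the 2 large shares. Slc3a2 with Slc7a8 and without Slc7a5 was found in 22 glucagon cells (66.7%, 48.2 to 82.0), 2 somatostatin, 1 PP and 101 insulin cells (25.6%, 21.3 to 30.2). Slc3a2 with both light chains was found in 3 glucagon cells (9.09%, 1.92 to 24.3), 0 somatostatin, 1 PP and 171 insulin cells (43.3%, 38.3 to 48.3). Median genes per cell were 4576 in glucagon and 5259 in insulin cells, and the part of this in the counts was not tested. With 250000 reads per cell, Slc7a5 was found in 6 of 32 glucagon and 228 of 391 insulin cells. Joint counts rise with the detection of each gene and were not compared with what the separate rates would give. Pearson coefficients of log2(RPKM + 1) for Slc3a2 with Slc7a8 were 0.05 in glucagon, 0.03 in somatostatin, 0.52 in PP and 0.20 in insulin cells. For Slc3a2 with Slc7a5 they were -0.415, 0.04, 0.36 and 0.20 in the same order.

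**Figure D3:**
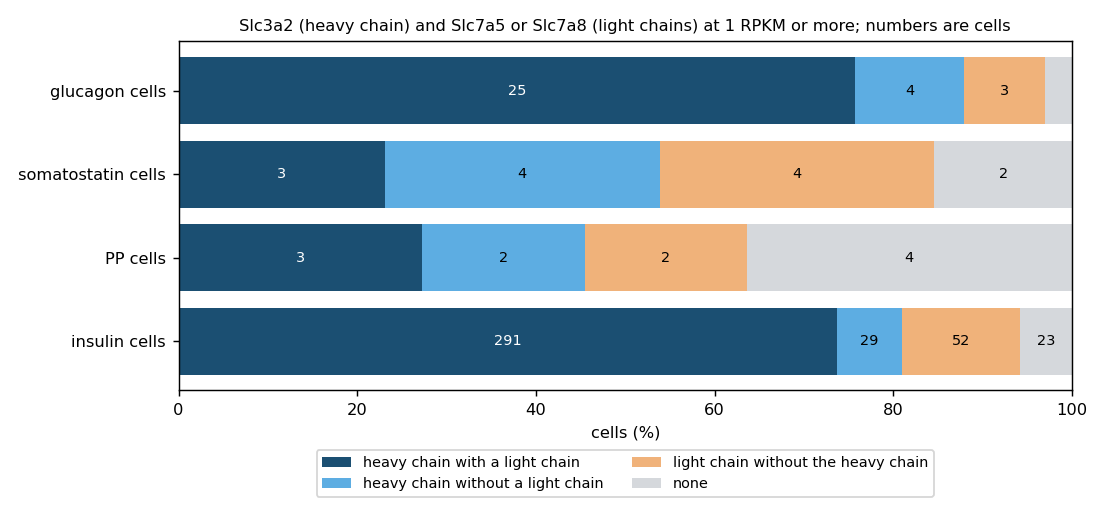
Share of cells in each hormone group (x axis, percent) with RNA of the heavy chain gene Slc3a2 and of either light chain gene, Slc7a5 or Slc7a8, at 1 RPKM or more, with numbers of cells printed in the bars. Heavy and light chain RNA were found together in 25 of 33 glucagon cells, 3 of 13 somatostatin cells, 3 of 11 PP cells and 291 of 395 insulin cells.

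Against all genes, the number of these genes past 4-fold was set beside the same count over the table. A gene was past 4-fold at a log2 ratio of at least 2 in size, if 1 of the group means was 5 RPKM or more. In glucagon over insulin cells, 8 of the 9 genes passed the level filter, and Slc38a5, Arg1 and Slc7a2 were higher past 4-fold while 0 were lower. Over all 7522 genes that passed this filter, 9.88% were past 4-fold, with 3.46% higher and 6.42% lower. The other 5 genes had log2 ratios between -1.85 for Slc7a5 and 1.17 for Slc7a8, with Slc3a2 at 0.50 and Slc38a4 at 0.14. The median over the 8 was 0.83, against -0.14 over all genes. Slc3a2, like Slc38a2, changed sign between the column sets, with 0.85 at full precision and -0.07 in the rounded set.

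In somatostatin over insulin cells, 8 of the 9 genes passed the filter, and Arg1 and Slc38a5 were higher past 4-fold. Slc38a4 (-5.33), Slc7a2 (-2.58), Slc3a2 (-2.16) and Slc7a5 (-2.13) were lower past 4-fold. The background over 7885 genes was 21.2%, with 10.6% in each direction. In 1 of the column sets 3 of these 4 were less than 4-fold lower: Slc7a2 was at -3.91 at full precision and -1.88 in rounded columns, Slc7a5 at -1.37 and -3.55, and Slc3a2 at -1.62 and -2.97. Slc38a2 fell just short of 4-fold at -1.99, with -1.07 at full precision and -4.82 in rounded columns, and Slc7a8 stood at 0.84. The median over the 8 was -2.06, against 0.20 over all genes. In PP over insulin cells, 7 passed the filter, Arg1 (2.41) was higher and Slc38a4 (-2.77) lower past 4-fold, against a background over 7698 genes of 20.9%, with 8.08% higher and 12.8% lower. In glucagon over somatostatin cells, 7 passed, and Slc38a4 (5.48), Slc7a2 (5.00) and Slc3a2 (2.66) were higher and Arg1 (-3.61) lower past 4-fold, against a background over 7775 genes of 28.8%, with 11.6% higher and 17.3% lower. Slc38a2 stood at 1.78 in glucagon over somatostatin cells, with -0.12 at full precision and 5.33 in rounded columns. These comparisons share cells: the insulin cells serve in 3 of them, and the glucagon and somatostatin cells in 2 each. Only 13 somatostatin and 11 PP cells entered the means, and the larger backgrounds of those comparisons stand beside these small numbers.

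**Figure D4:**
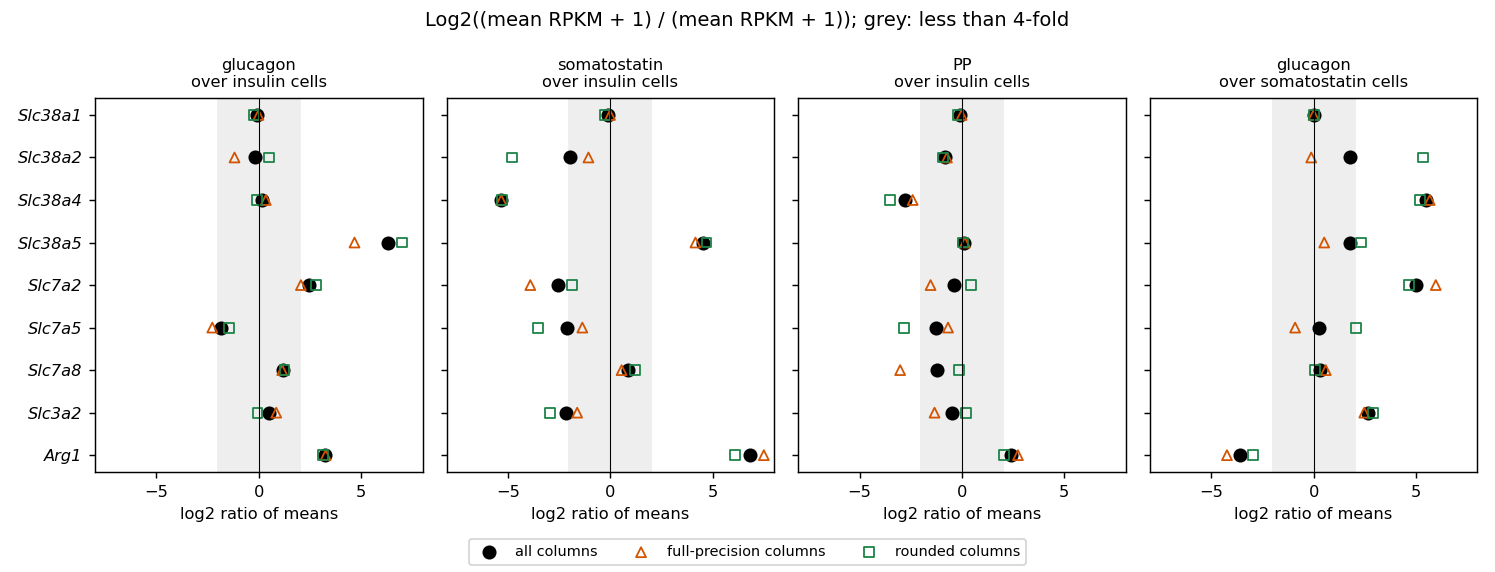
Log2 ratio of group means, with 1 RPKM added to each mean, for 9 genes in 4 comparisons of hormone groups (filled circles, all columns; triangles, full-precision columns; squares, rounded columns; grey, less than 4-fold). Slc38a5 and Arg1 lie right of the grey band in glucagon and in somatostatin over insulin cells in both column sets. For Slc38a5 in somatostatin cells this rests on detection in 1 of 6 full-precision and 2 of 7 rounded cells. Slc38a2 and Slc3a2 lie on both sides of 0 in glucagon over insulin cells.

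Within the glucagon cells, the genes with uneven detection were found in every pairwise combination. Slc38a5 and Arg1 were both detected in 8 cells, Slc38a5 alone in 9, Arg1 alone in 7 and neither in 9. For Slc38a2 and Slc38a5 the counts were 9 with both, 9 with Slc38a2 alone, 8 with Slc38a5 alone and 7 with neither. For Slc38a2 and Arg1 they were 9 with both, 9 with Slc38a2 alone, 6 with Arg1 alone and 9 with neither. Pearson coefficients of log2(RPKM + 1) over the 33 cells were -0.03 for Slc38a5 with Arg1, -0.11 for Slc38a2 with Slc38a5 and 0.20 for Slc38a2 with Arg1, given as descriptions of cells that share the 2 column sets and differ in depth. In the 13 somatostatin cells, the 3 cells with Slc38a5 also had Arg1 and Slc7a8, and 2 of them had Slc38a2. The median number of the 9 genes detected per cell was 5 in glucagon cells, 3 in somatostatin cells, 2 in PP cells and 5 in insulin cells.

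**Figure D5:**
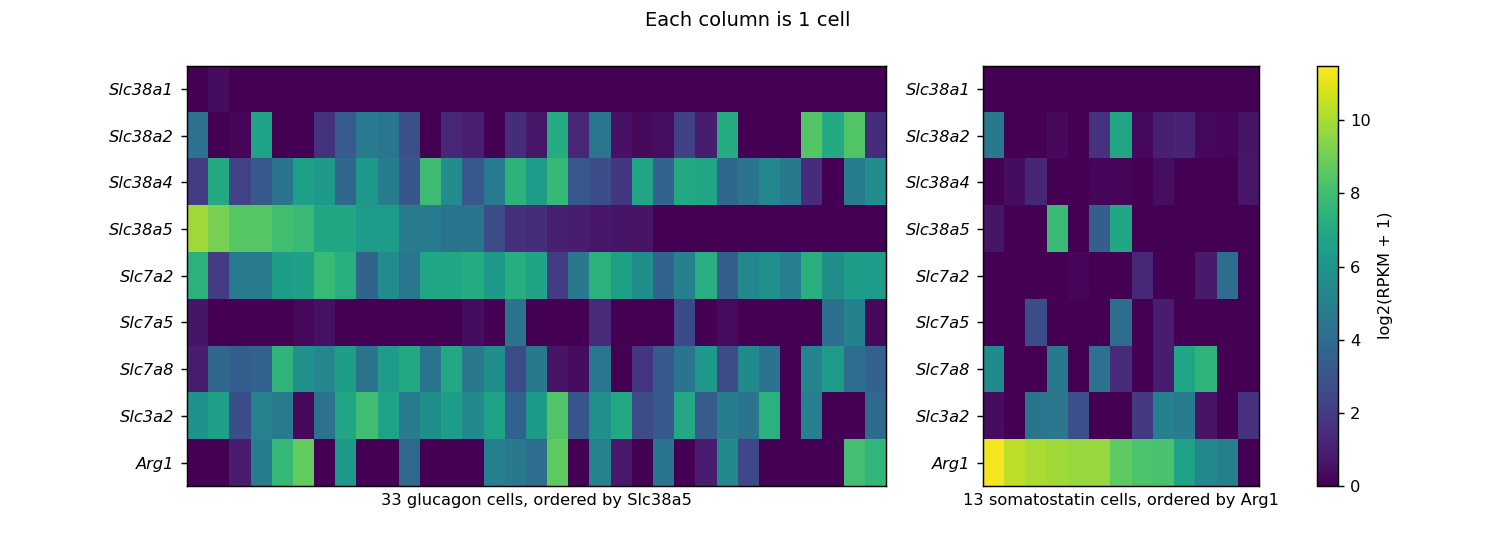
Levels of the 9 genes in each of the 33 glucagon cells, ordered by Slc38a5, and the 13 somatostatin cells, ordered by Arg1 (colour, log2(RPKM + 1)). Among the 6 cells with the highest Slc38a5, on the left of the glucagon panel, Arg1 ran from 0 to 427.7 RPKM and Slc38a2 from 0 to 99.3 RPKM, and the somatostatin cell at 0 for Arg1 stands at the far right.

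The 3 genes whose pattern over the 33 glucagon cells was most like each unevenly detected member were named, out of 6335 genes detected in at least 25% of these cells. For Slc38a5 these were Tmx4 (Pearson coefficient 0.61), Cpd (0.59) and Gm15785 (0.55). For Slc38a2 they were Arl5a (0.64), Ppp2ca (0.62) and Afg3l2 (0.60). For Arg1 they were Igsf21 (0.74), Ociad2 (0.63) and Gm13430 (0.58). Igsf21, which encodes an immunoglobulin superfamily protein, was detected in 10 glucagon cells, 9 of which also had Arg1. These are the largest of 6335 coefficients over few cells and describe this set of cells only.

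Other genes of amino acid metabolism were described by 4 lists. Over all genes that passed the level filter, 3.46% were higher and 6.42% lower past 4-fold in glucagon over insulin cells. The shares in somatostatin over insulin cells were 10.6% in each direction. The counts of all 4 lists are to be read beside these shares and were not tested against them. Of 37 other amino acid transporter genes, 7 passed the level filter in glucagon over insulin cells, with 0 higher past 4-fold and 1 lower, Slc7a4 (-2.11), and a median of -0.10. In somatostatin over insulin cells 10 passed, with Slc7a7 (2.47, detected in 1 of 13 cells) and Slc38a7 (2.40, 3 of 13 cells) higher and 0 lower. Slc38a3, which encodes the other well-known system N glutamine transporter beside Slc38a5, was listed at 0 in every cell of the 4 groups.

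Of 22 genes of arginine, ornithine and polyamine enzymes, 9 passed in glucagon over insulin cells, with 0 past 4-fold. In somatostatin over insulin cells 10 passed, and Gatm, which makes the creatine precursor from arginine, was higher at a log2 ratio of 2.83. Gatm averaged 221.3 RPKM in somatostatin cells and 30.2 in insulin cells, and was detected in 7 of 13 and 193 of 395 cells. The somatostatin cell with acinar markers held 0.940 RPKM of Gatm, and the other 12 averaged 239.7. The polyamine synthesis genes Srm (-2.77) and Amd1 (-2.33) were lower. Arg2, the mitochondrial arginase gene, averaged below 0.3 RPKM in each of the 4 groups. Oat, which acts on the ornithine that arginase forms, was listed at 0 in all 13 somatostatin cells. Oat was also detected in only 21 of 395 insulin cells, and in 7 of 33 glucagon and 3 of 11 PP cells. It did not pass the level filter in somatostatin over insulin cells.

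Of 18 genes of glutamine, glutamate and non-essential amino acid enzymes, 14 passed in glucagon over insulin cells, with 2 higher and 4 lower past 4-fold and a median of -0.75. Gpt, the alanine transaminase gene, was higher at 2.06, with 5.85 RPKM in glucagon cells and 0.639 in insulin cells, and was detected in 5 of 33 and 29 of 395 cells. The lower genes were Phgdh (-3.82) and Psph (-2.32) of serine synthesis, Shmt2 (-2.07) of mitochondrial serine and glycine exchange, and Bcat2 (-2.43) of branched-chain amino acid breakdown. In this order they were detected in 93, 123, 97 and 77 of 395 insulin cells, a minority in each case. In glucagon cells they were detected in 0, 3, 2 and 2 of 33. In somatostatin over insulin cells 13 passed, with 0 higher and 5 lower and a median of -1.38. The serine synthesis genes Psph (-3.85) and Psat1 (-3.58) were among the lower ones. Phgdh and Shmt2 were listed at 0 in the somatostatin cells, against means of 13.4 and 6.04 RPKM in insulin cells. Psat1 was detected in 95 of 395 insulin cells. The insulin means of Psph, Psat1, Phgdh and Shmt2 thus each came from a minority of the insulin cells.

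Of 25 genes of amino acid sensing and stress response, 20 passed in glucagon over insulin cells, with 1 higher and 5 lower past 4-fold and a median of -0.86. Rragb, a Rag GTPase gene of the nutrient-sensing pathway, was higher (2.18), and Rragd, of the same family, was lower (-2.54). The stress response genes Atf5 (-3.43) and Chac1 (-3.42) were lower as well. Trib3 was listed at 0 in the glucagon cells, against a mean of 8.74 RPKM in insulin cells. Atf5, Chac1 and Trib3 were detected in 268, 175 and 87 of 395 insulin cells and in 4, 5 and 0 of 33 glucagon cells. Their known upstream factor gene Atf4 stood below 4-fold, with 95.2 RPKM in glucagon cells and 164.9 in insulin cells. In somatostatin over insulin cells 18 passed, with 0 higher and 3 lower, Chac1 (-4.49), Trib3 (-3.24) and Atf5, which averaged 2.46 RPKM in somatostatin cells and 12.9 in insulin cells. Slc7a5, Slc3a2 and Slc38a2 among the members are known targets of the same amino acid response, and in glucagon over insulin cells they had log2 ratios of -1.85, 0.50 and -0.21.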

How the data were processed

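The authors deposited 1 table of RPKM values, with a row per Entrez gene ID and a column per cell. CASAVA 1.8.2, FastQC and the build GRCm38 (mm10) are named in the submitters' processing notes; the aligner, counter and annotation were not given in the sources used. Symbols and positions came from RefSeq on GRCm38.p6, and 39725 of 44448 IDs matched. Promoters of RefSeq were matched for 5 of the 9 genes, and those of Slc38a1, Slc7a2, Slc7a5 and Arg1 are named only. The members and gene lists were chosen with earlier results of these data known. Mixed cells, which include possible doublets, were left out of the groups, and no doublet score was used. Depth is not in the table. Reads were recovered as whole numbers from the RPKM ratios of cells for 22897 of 23143 genes (99.9% of values under 100 reads in the rounded columns were whole within 0.05) and served for depth and thinning to 250000 reads only, with 8 cells below that depth; Slc38a1 had no unit. Depth over all 622 cells ran from 2461 to 6111946 reads, with a median of 1119228. The absolute scale of these reads rests on the 3922 genes whose value of 1 read matched their RefSeq length. At median depth, 1 RPKM was 2.04 reads of Slc38a5, 1.62 of Arg1 and 9.64 of Slc7a2, so long genes were counted with more precision. No 2 columns held identical values.

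Group means of RPKM were compared as log2((mean + 1) / (mean + 1)), which understates changes of low genes. No p-value was computed, because animals and chips are not labelled. The upper limit for a count of 0 was 3 counts out of the total. Named genes were the 9 members, up to 4 genes per list and direction with the largest ratios past 4-fold, and the 3 genes with the highest Pearson coefficient to each member detected in 20% to 80% of glucagon cells; Slc7a1, Slc7a3, Slc7a14, Slc38a3, Arg2, Oat and Atf4 were added after their values were seen. Some marker and list genes are counted but not reported here by name. Alternatives were other pseudocounts, hormone and gene-count thresholds, detection thresholds, column sets, thinning, log means, rescaling without hormone and mitochondrial genes, and leaving out cells with non-endocrine markers or the highest cell. The read recovery and the ratios were tested on simulated data. Python 3.11.15, numpy 2.4.6, pandas 2.3.3, scipy 1.17.1 and matplotlib 3.10.9 were used.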

Additional observations from a re-analysis of the deposited data

Results flagged for a closer look

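The 141 cells with mixed hormone RNA were outside the hormone groups, and 8 of the 9 genes were detected there above the limit that a count of 0 allows. Slc38a2 was detected in 107 of these cells, Slc38a4 in 116, Slc38a5 in 31, Slc7a2 in 115, Slc7a5 in 64, Slc7a8 in 115, Slc3a2 in 122 and Arg1 in 89. Arg1 was found in 16 of 16 cells with PP and somatostatin RNA (mean 558.9 RPKM), 25 of 28 with insulin and somatostatin RNA (273.6), 7 of 8 with PP and glucagon RNA (119.7), 11 of 23 with PP and insulin RNA (156.5) and 29 of 65 with glucagon and insulin RNA (27.1). Slc38a5 was found in 24 of the 65 cells with glucagon and insulin RNA (mean 25.2 RPKM), 2 of 8 with PP and glucagon RNA, 3 of 28 with insulin and somatostatin RNA, 2 of 16 with PP and somatostatin RNA and 0 of 23 with PP and insulin RNA. Slc7a2 was found in 62 of the 65 cells with glucagon and insulin RNA, and Slc38a4 in 5 of the 16 cells with PP and somatostatin RNA, at a mean of 3.53 RPKM. Whether a mixed cell was 1 cell or several was not tested. Of the 29 cells below 1000 genes, 8 had Slc38a2 at 1 RPKM or more, and the median mitochondrial share of RPKM over the 29 was 89.7%.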

How the results depend on the processing

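Of 468 log2 ratios of the 9 genes under 13 alternatives, 346 moved by less than 1.5-fold, and 4 of 15 ratios past 4-fold stayed there under all 13: Slc38a5 in glucagon over insulin cells, Slc38a4 in somatostatin over insulin cells, and Slc38a4 and Slc7a2 in glucagon over somatostatin cells. Of 392 shares of cells under up to 11 alternatives, 317 lay inside the counting interval given. The number of genes past 4-fold was 2 instead of 6 in somatostatin over insulin cells with a pseudocount of 10 RPKM. In PP over insulin cells it was 0 instead of 2 with that pseudocount, and 1 with the hormone rule at 75% or 99% or with means of log2(RPKM + 1). With the rule at 99%, glucagon over somatostatin cells had 7 instead of 4. That rule left 22 glucagon, 1 somatostatin, 5 PP and 360 insulin cells, and the 1 somatostatin cell was the one with acinar markers. Against it, 3 ratios changed sign: Slc38a5 (-0.27) and Arg1 (-1.61) in somatostatin over insulin cells, and Arg1 (5.91) in glucagon over somatostatin cells. No paired analysis was possible because the labels name no replicate, animal or chip and no test was made. Group sizes of 33, 13 and 11 cells set the width of the counting intervals.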
